A study of Mus musculus with 9 samples.

Results

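The 10 genes described here are Atf4 and 9 genes that it is known to switch on during amino acid shortage and related stress: Ddit3, Trib3, Chac1, Sesn2, Slc7a11, Slc3a2, Asns, Psat1 and Phgdh. They were taken by name from a table of 78275 mouse gene IDs, all 10 matched a row, and all 10 were among the 27773 genes that passed the filter on low counts. The choice was made with the levels of these genes in these libraries known, and in particular with a difference in Slc7a11 between groups known. The members' own levels and fold changes are therefore given as descriptions, with standard errors and intervals. Nothing is read from a p-value of any single member.

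RNA was sequenced from cells of the embryonic mouse cerebral cortex that carried a plasmid coding for the red fluorescent protein mCherry together with a short hairpin RNA set in a microRNA backbone. The labels give the tissue as forebrain and the cells as cortical progenitors and neurons. Wild-type embryos were electroporated in utero at E14.5, and mCherry-positive cells were sorted by flow cytometry 48 h later, at E16.5. In the sh-Gpc4 group the hairpin targeted Gpc4, in the sh-Gpc2 group it targeted Gpc2, and in the sh-NT group it was a scrambled sequence. Both targets code for glypicans, proteoglycans with heparan sulfate chains that a lipid anchor holds at the cell surface. Each group had 3 libraries, prepared with a kit for very little RNA, and all groups share the electroporation, the reporter and the sort.

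Activating transcription factor 4 (ATF4) is the main effector of the integrated stress response. Kinases that sense amino acid shortage, unfolded protein in the endoplasmic reticulum, viral RNA or haem shortage phosphorylate the translation factor eIF2 alpha, which lowers protein synthesis in general while the Atf4 mRNA is translated better. ATF4, paired with proteins of the C/EBP family, binds composite C/EBP-ATF elements and switches on amino acid transporters, amino acid synthesis enzymes, tRNA synthetases and, when stress lasts, the pro-apoptotic factor CHOP (Ddit3). Because part of this control acts on translation, the level of Atf4 mRNA does not report the amount of ATF4 protein.

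The C/EBP-ATF element was searched as TGATGNAA on both strands of the 250 bases before each RefSeq start (GRCm38.p6). It was present before the starts of Slc7a11, Chac1 and Asns and not found in that window for the other 7 genes, and 3.45% of 32851 promoters of that length held it. The window of Slc7a11 held 2 matches, which lie on opposite strands. Of all promoters, 0.0396% held 2 or more matches, whatever their strands. The stretches around the matches of Slc7a11 and Chac1 are shown because Slc7a11 is the member with the widest range over libraries and Chac1 is another member whose match has the same letters; capitals mark the matches, and both are written 5′ to 3′ on the gene's own strand (chr3:50443617-50443715, minus strand, and chr2:119351013-119351092, plus strand).
Slc7a11: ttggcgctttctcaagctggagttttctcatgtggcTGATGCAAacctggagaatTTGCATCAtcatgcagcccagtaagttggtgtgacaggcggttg
Chac1: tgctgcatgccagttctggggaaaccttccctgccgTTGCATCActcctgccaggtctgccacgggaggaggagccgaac
In Slc7a11 the matches cover bases 66 to 59 and bases 47 to 40 before the start, and in Chac1 the match covers bases 193 to 186 before it. In Asns the match, TGATGAAA, lies 23 to 16 bases before the RefSeq start, inside the first exon of the GENCODE M21 gene model. A match is a run of letters and not evidence of binding.

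The libraries held 48045603 to 66538437 counted reads. The targeted genes were read first. Gpc4 had 137, 99.9 and 129 CPM (read counts scaled to a common library size by TMM) in sh-Gpc4 libraries, 145, 216 and 116 CPM in sh-Gpc2 libraries and 165, 188 and 175 CPM in sh-NT libraries. Gpc2 had 168, 70.3 and 96.6 CPM in sh-Gpc4 libraries, 167, 145 and 79.6 CPM in sh-Gpc2 libraries and 199.7, 207 and 161 CPM in sh-NT libraries. Neither passed the test (edgeR quasi-likelihood, adjusted p = 0.488 for Gpc4 in sh-Gpc4 and 0.968 for Gpc2 in sh-Gpc2, each against sh-NT). Mean Gpc2 was 112 CPM in sh-Gpc4, 131 CPM in sh-Gpc2 and 189 CPM in sh-NT libraries, so it was lower in the group that targets Gpc4 than in its own, and sh-Gpc2 library 1 lay above sh-NT library 4. The Gpc2 values thus do not separate the libraries labelled sh-Gpc2 from the others, and directions drawn from that group rest on the labels alone. Gpc4 was lower in all sh-Gpc4 than in all sh-NT libraries, but it did not separate sh-Gpc4 from sh-Gpc2. Sh-Gpc2 library 4, at 116 CPM, lay below sh-Gpc4 libraries 1 and 4. Sh-Gpc4 library 3 and sh-Gpc2 library 4 stood apart from the rest on the first principal component, which held 71.6% of the variance. In these 2 libraries genes with GC-rich exons had lower levels, with slopes of -0.35 and -0.25 in log2 CPM per 10% of GC content, against -0.10 to 0.17 in the other 7. The same 2 libraries had the lowest values of Gpc4 (99.9 and 116 CPM) and of Gpc2 (70.3 and 79.6 CPM). Markers of radial glia, intermediate progenitors and excitatory neurons, the cells of this tissue, all had reads in every library, and microglial markers summed to 419 to 1587 CPM.

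The levels of the 10 genes can be compared with each other only per transcript length. In TPM, counts scaled by exon length to a common library total, Phgdh was the most abundant, with 210.3 ± 38.4 in sh-Gpc4, 233 ± 42.3 in sh-Gpc2 and 245 ± 43.7 in sh-NT libraries (SD, n = 3 each). The order of the group means was the same in all 3 groups and ran Phgdh, Slc3a2, Atf4, Psat1, Asns, Ddit3, Sesn2, Chac1, Trib3 and Slc7a11. In sh-NT libraries the means below Phgdh were 179 TPM for Slc3a2, 172 TPM for Atf4, 143 TPM for Psat1, 55.4 TPM for Asns, 48.3 TPM for Ddit3, 23.2 TPM for Sesn2, 8.41 TPM for Chac1, 3.40 TPM for Trib3 and 0.857 TPM for Slc7a11. Neighbours whose library ranges overlapped in every group were Slc3a2 with Atf4 and Asns with Ddit3, so their order is within the spread. The ranges of Phgdh and Slc3a2 overlapped in sh-Gpc4 libraries (166 to 235 against 184 to 206 TPM) and in sh-Gpc2 libraries (193 to 277 against 187 to 209 TPM), so the top rank of Phgdh was clear of the spread in sh-NT libraries only. Sesn2 with Chac1 overlapped in the sh-Gpc4 and sh-Gpc2 groups, Trib3 with Slc7a11 in sh-Gpc2 and Atf4 with Psat1 in sh-NT libraries. The enzymes and the transporter heavy chain were thus abundant in these cells, while the feedback regulator Trib3 and the cystine transporter Slc7a11 were near the bottom of the list.

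In the fit across all genes none of the 10 genes passed an adjusted p of 0.05 in any of the 3 comparisons, and 0% of all tested genes did. The smallest adjusted p over all 27773 genes (edgeR quasi-likelihood, Benjamini-Hochberg) was 0.488 for sh-Gpc4 against sh-NT, 0.968 for sh-Gpc2 against sh-NT and 0.966 for sh-Gpc4 against sh-Gpc2. At an unadjusted edgeR p under 0.05 the count was 1 of 10 members (Ddit3) beside 9.57% of all genes for sh-Gpc4 against sh-NT. It was 2 of 10 (Ddit3 and Slc7a11) beside 2.56% for sh-Gpc2 against sh-NT. For sh-Gpc4 against sh-Gpc2 it was 1 of 10 (Slc7a11) beside 2.89%. The members were chosen with these levels known, so nothing is read from these counts. The DESeq2 Wald test called 46 genes (0.211%) for sh-Gpc4 against sh-NT and 0% for each of the other comparisons, and limma voom called none; neither called any of the 10 genes. In bulk samples fewer cells of a type and less RNA per cell cannot be told apart, and the labels do not say whether replicate libraries are of separate litters or animals, so that every p-value here reflects no more than the variation among these 9 libraries.

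The median log2 fold change of the 10 genes was -0.10 for sh-Gpc4 against sh-NT, where the median of all tested genes was 0.02. It was 0.11 for sh-Gpc2 against sh-NT (all genes 0.003) and -0.13 for sh-Gpc4 against sh-Gpc2 (all genes -0.002). The fitted values were above 0 for 5 of 10 genes in sh-Gpc4 against sh-NT, for 7 of 10 in sh-Gpc2 against sh-NT and for 2 of 10 in sh-Gpc4 against sh-Gpc2; the comparisons share libraries. In sh-Gpc4 against sh-NT no overlap between the groups was seen for 1 gene that was higher (Ddit3; 10.8% of all genes) and 1 that was lower (Slc7a11; 13.2% of all genes). In sh-Gpc2 against sh-NT it was seen for 2 genes that were higher (Ddit3 and Slc3a2; 3.59% of all genes) and for none that was lower (4.11% of all genes). In sh-Gpc4 against sh-Gpc2 all 10 genes overlapped, where 3.5% of all genes were higher and 2% lower without overlap. Since the members were chosen on these libraries, nothing is read from these counts.

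**Figure D1:**
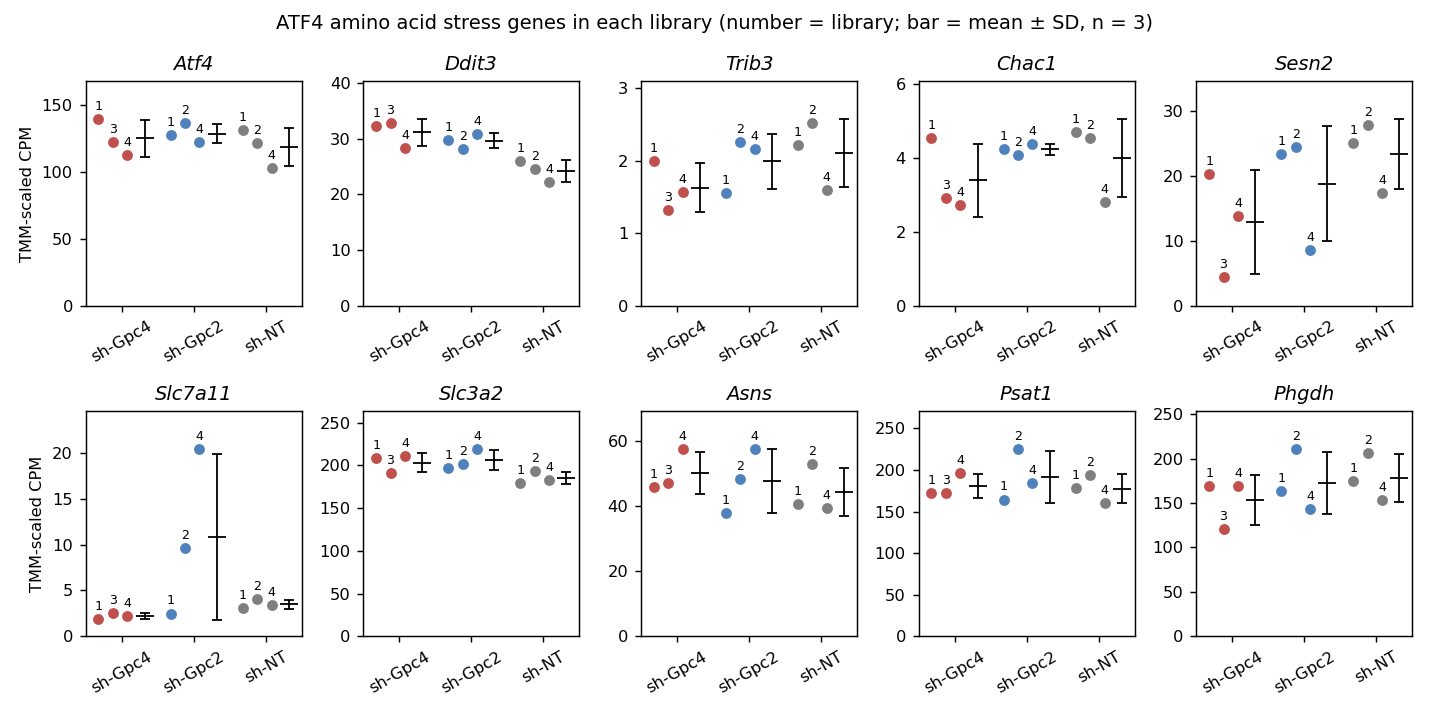
TMM-scaled CPM (y axis, from 0) of each of the 10 genes in the 9 libraries, with the groups sh-Gpc4, sh-Gpc2 and sh-NT on the x axis; numbers beside points are library numbers, and bars give the mean and SD of 3 libraries. Slc7a11 was high in sh-Gpc2 libraries 2 and 4 only, and Sesn2 was lowest in sh-Gpc4 library 3 and sh-Gpc2 library 4. In the other genes the highest library was from 1.22 (Slc3a2) to 1.91 (Trib3) times the lowest.

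Atf4 (ENSMUSG00000042406, chromosome 15, 80255184 to 80257541 on the plus strand of GRCm38) had 139.7, 122 and 113 CPM in sh-Gpc4 libraries 1, 3 and 4. It had 127, 136 and 122 CPM in sh-Gpc2 libraries 1, 2 and 4 and 131, 122 and 103 CPM in sh-NT libraries 1, 2 and 4. The 3 groups overlapped, and the highest library was 1.36 times the lowest. The log2 fold change was 0.08 (SE 0.12, 95% interval -0.18 to 0.33) in sh-Gpc4 and 0.12 (SE 0.12, 95% interval -0.14 to 0.38) in sh-Gpc2 libraries, each against sh-NT. After removal of the GC trend these values were 0.36 and 0.27. Profiles were compared with 10617 candidate genes with a symbol and a mean of at least 5 CPM. The members, provisional and clone-based symbols, pseudogenes and 1 chromosome were left out of the candidates. Among these the profile over the 9 libraries most like that of Atf4 was that of Pax6, a transcription factor of radial glia. The root-mean-square difference was 0.05 in log2 CPM centred on each gene's mean. Fbxo22, Nrg4, Agpat4 and Eif1b followed, with 0.058 to 0.064. These genes were picked for likeness over the same libraries, so nothing is read from the match.

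Ddit3 (ENSMUSG00000025408, chromosome 10, 127290774 to 127296288, plus strand) encodes CHOP, which drives apoptosis in lasting endoplasmic reticulum stress. It had 32.2, 32.8 and 28.2 CPM in sh-Gpc4 libraries, 29.7, 28.2 and 30.8 CPM in sh-Gpc2 libraries and 25.9, 24.5 and 22.1 CPM in sh-NT libraries. All 6 libraries with a glypican hairpin lay above all 3 sh-NT libraries, by a narrow margin. The log2 fold change was 0.36 (SE 0.11, 95% interval 0.12 to 0.60) in sh-Gpc4 and 0.29 (SE 0.11, 95% interval 0.05 to 0.53) in sh-Gpc2 libraries, each against sh-NT, that is, 1.29 and 1.22 times the sh-NT level. Of all tested genes, 10.8% were higher without overlap in sh-Gpc4 and 3.59% in sh-Gpc2 libraries, each against sh-NT. Both comparisons use the same sh-NT libraries, and the share of genes that were higher in both was not counted.

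The reads of Ddit3 cannot be fully separated from those of its neighbours. Its exons overlap those of Mars and of the transcript Gm4189 on the opposite strand, and those of a second Ddit3 ID (ENSMUSG00000116429); the labels do not state if counting used the strand. Gm4189 had 20.6, 15.2 and 16.3 CPM in sh-Gpc4 libraries, 20.6, 16.3 and 15.1 CPM in sh-Gpc2 libraries and 12.04, 13.5 and 11.1 CPM in sh-NT libraries. The second ID had 8.05, 7.48 and 6.35 CPM in sh-Gpc4 libraries, 6.48, 5.95 and 6.74 CPM in sh-Gpc2 libraries and 5.18, 5.40 and 4.39 CPM in sh-NT libraries. Both followed the pattern of Ddit3, with no overlap between the sh-Gpc4 or the sh-Gpc2 group and sh-NT. Mars did not, with means of 137 CPM in sh-Gpc4, 151 CPM in sh-Gpc2 and 149 CPM in sh-NT libraries. Which of these transcripts gave the reads cannot be told from the counts.

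Genes of the immediate-early and heat-shock response that follows tissue dissociation lay on the same side as Ddit3. Of 14 such genes tested, 11 were above 0 in sh-Gpc4 (median log2 fold change 0.16) and 13 in sh-Gpc2 libraries (median 0.34), each against sh-NT. None passed the adjusted test, 2 and 6 had an unadjusted p under 0.05, and 1 and 6 were higher with no overlap (10.8% and 3.59% of all genes). The heat-shock chaperone Hspa1a had 38.3, 23.0 and 10.9 CPM in sh-Gpc4 libraries, 51.6, 32.5 and 28.4 CPM in sh-Gpc2 libraries and 12.3, 9.45 and 13.1 CPM in sh-NT libraries. The summed level of the list ran from 2023 to 3177 CPM in sh-Gpc4, from 2622 to 3089.9 CPM in sh-Gpc2 and from 2109 to 2431 CPM in sh-NT libraries, and its part in the Ddit3 values was not tested.

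Trib3 (chromosome 2), a pseudokinase that feeds back on ATF4 and CHOP, and Chac1 (chromosome 2), a glutathione-degrading enzyme, were among the lowest members. Trib3 had 1.998, 1.32 and 1.58 CPM in sh-Gpc4 libraries, 1.55, 2.26 and 2.16 CPM in sh-Gpc2 libraries and 2.22, 2.51 and 1.59 CPM in sh-NT libraries. Chac1 had 4.53, 2.91 and 2.74 CPM in sh-Gpc4 libraries, 4.24, 4.08 and 4.37 CPM in sh-Gpc2 libraries and 4.70, 4.52 and 2.80 CPM in sh-NT libraries. For both genes the groups overlapped and sh-NT library 4 lay below the other sh-NT libraries. The log2 fold changes against sh-NT were -0.38 (SE 0.24) for Trib3 and -0.24 (SE 0.25) for Chac1 in sh-Gpc4 libraries, and -0.08 (SE 0.24) and 0.08 (SE 0.24) in sh-Gpc2 libraries. After removal of the GC trend the sh-Gpc4 values were 0.003 for Trib3 and 0.10 for Chac1, and the sh-Gpc2 values 0.155 and 0.29.

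Sesn2 (ENSMUSG00000028893, chromosome 4, 132492032 to 132510501, minus strand) encodes sestrin 2, a leucine sensor that restrains mTORC1. It had 20.4, 4.50 and 13.9 CPM in sh-Gpc4 libraries, 23.4, 24.5 and 8.63 CPM in sh-Gpc2 libraries and 25.2, 27.9 and 17.5 CPM in sh-NT libraries. The 2 lowest values were those of sh-Gpc4 library 3 and sh-Gpc2 library 4, the libraries that stood apart on the first principal component, and the groups overlapped. The highest library was 6.20 times the lowest, the widest range among the members after Slc7a11. The log2 fold change was -0.86 (SE 0.52, 95% interval -2.02 to 0.30) in sh-Gpc4 and -0.32 (SE 0.51, 95% interval -1.47 to 0.84) in sh-Gpc2 libraries, each against sh-NT. Without sh-Gpc4 library 3 the sh-Gpc4 value was -0.45, and without sh-Gpc2 library 4 the sh-Gpc2 value was 0.03. The exons of Sesn2 are 58.7% G or C, above those of 93.1% of tested genes with a known value. With the GC trend removed from each library the values were -0.57 and -0.19.

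**Figure D2:**
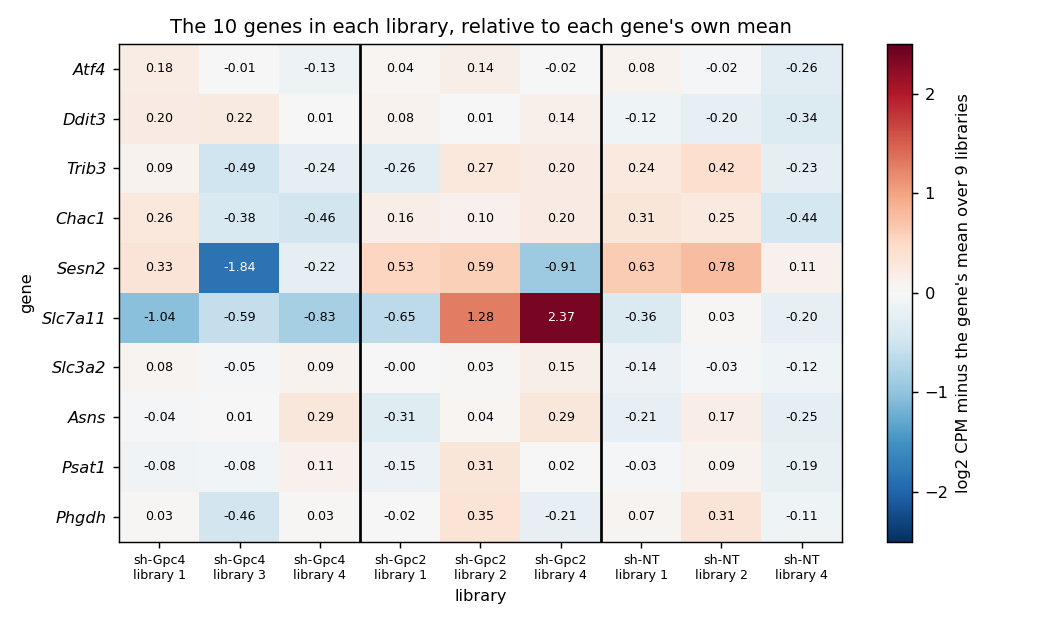
Level of each gene (rows) in each library (columns) as log2 CPM minus the gene's own mean over the 9 libraries; red is above and blue below that mean. The strong colours sit in 2 rows: Sesn2 at -1.84 in sh-Gpc4 library 3 and -0.91 in sh-Gpc2 library 4, and Slc7a11 at 1.28 and 2.37 in sh-Gpc2 libraries 2 and 4.

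Slc7a11 (ENSMUSG00000027737, chromosome 3, 49892526 to 50443614, minus strand) encodes xCT, the light chain of the cystine-glutamate exchanger that supplies cysteine for glutathione. It had 1.90, 2.59 and 2.19 CPM in sh-Gpc4 libraries 1, 3 and 4, from 95, 173 and 149 reads. It had 2.49, 9.63 and 20.4 CPM in sh-Gpc2 libraries 1, 2 and 4, from 141, 597 and 1004 reads, and 3.06, 4.02 and 3.41 CPM in sh-NT libraries 1, 2 and 4, from 190, 238 and 193 reads. Sh-Gpc2 libraries 2 and 4 lay above all other libraries, whereas sh-Gpc2 library 1 lay below every sh-NT library and between the 2 highest sh-Gpc4 values. The sh-Gpc4 libraries all lay below the sh-NT libraries. The group means were 2.23 ± 0.350 CPM in sh-Gpc4, 10.9 ± 9.03 CPM in sh-Gpc2 and 3.50 ± 0.485 CPM in sh-NT libraries (SD, n = 3 each), so the SD of the sh-Gpc2 libraries nearly equalled their mean.

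Single libraries carried the size of the Slc7a11 difference. The fitted log2 fold change was 1.63 in sh-Gpc2 against sh-NT (SE 0.57, 95% interval 0.36 to 2.90), which is 3.10 times. It was 0.80 without sh-Gpc2 library 4, 1.71 without library 2 and 2.10 without library 1, and 0.93 by limma voom with sample weights. For sh-Gpc4 against sh-Gpc2 it was -2.28 (SE 0.58), and -1.44 without sh-Gpc2 library 4, -2.36 without library 2, -2.75 without library 1 and -1.59 by limma voom. For sh-Gpc4 against sh-NT it was -0.65 (SE 0.57, 95% interval -1.92 to 0.63), and it stayed between -0.76 and -0.54 with each library left out in turn. The sign was the same under every alternative in all 3 comparisons, and the choice of the gene fixes that sign in part.

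**Figure D3:**
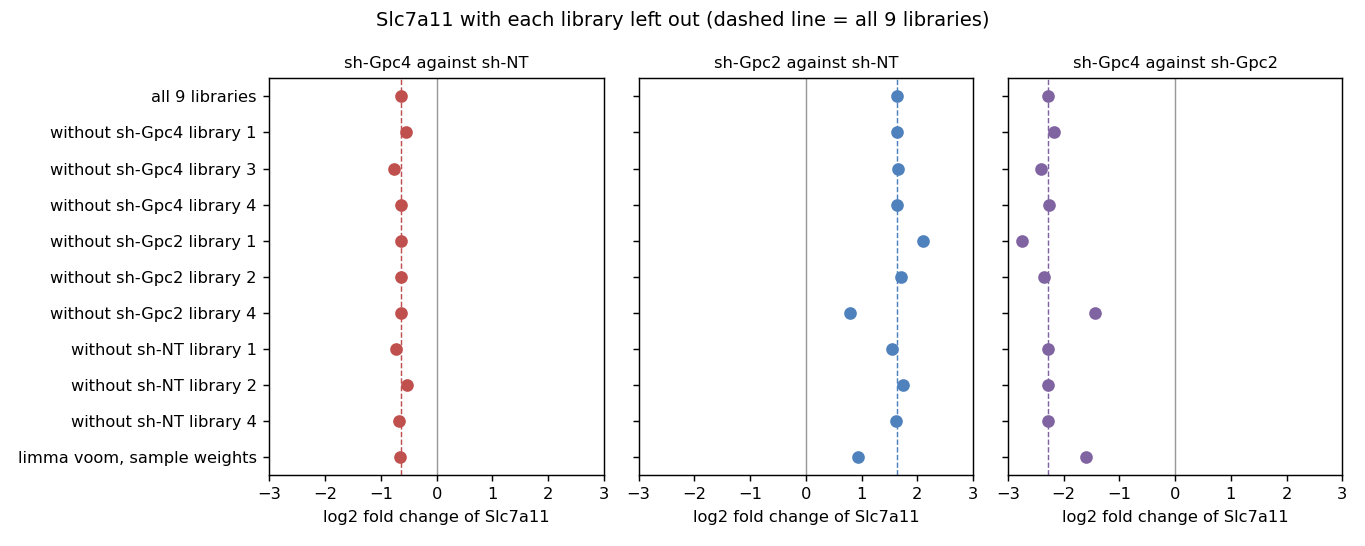
Fitted log2 fold change of Slc7a11 (x axis) with all 9 libraries, with each library left out in turn and by limma voom with sample weights (rows), for the 3 comparisons. Leaving out sh-Gpc2 library 4 brought the sh-Gpc2 value to 0.80, against 1.63 with all libraries, while the sh-Gpc4 against sh-NT values stayed between -0.76 and -0.54.

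Sh-Gpc2 library 4 was also 1 of the 2 libraries in which GC-rich genes were low, and the exons of Slc7a11 are 40.7% G or C, above those of only 10.9% of tested genes with a known value. With the GC trend removed the Slc7a11 value for sh-Gpc2 against sh-NT was 1.56, and with both libraries that stood apart left out it was 0.78. Sh-Gpc4 library 3, with the steepest GC slope, had 2.59 CPM. In GENCODE M21 no exon of Slc7a11 overlaps an exon of another gene. Counted gene IDs that GENCODE M21 does not hold were not checked.

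Markers of other cells were read beside these values. The 8 endothelial markers summed to 66.5 to 80.2 CPM in sh-Gpc4, 73.7 to 94.8 CPM in sh-Gpc2 and 73.9 to 82.9 CPM in sh-NT libraries, with the 2 highest sums in sh-Gpc2 libraries 2 and 4. Most of each sum was Slco1c1, and the other markers were low. The means of Cldn5, Cdh5, Kdr, Flt1, Esam and Tie1 were lower in sh-Gpc2 than in sh-NT libraries. Pecam1 went the other way, with means of 5.04 CPM in sh-Gpc2 and 3.73 CPM in sh-NT libraries, and its groups overlapped. Cldn5 was at 0.0799, 0.195 and 0.236 CPM in sh-Gpc4 libraries, 0.106, 0.0807 and 0.142 CPM in sh-Gpc2 libraries and 0, 0.793 and 1.13 CPM in sh-NT libraries. Cdh5 was at 0.180, 0.210 and 0.236 CPM in sh-Gpc4 libraries, 0.3002, 0.145 and 0.448 CPM in sh-Gpc2 libraries and 0.241, 0.658 and 0.761 CPM in sh-NT libraries. Cldn5 and Cdh5 were highest in sh-NT libraries 2 and 4. So was the mean of the whole list in centred log2 CPM, at 0.91 in each of these libraries and at most 0.03 in the other 7. The 5 markers of oligodendrocyte precursors summed to 4.89, 1.27 and 3.74 CPM in sh-Gpc4 libraries, 4.57, 14.46 and 10.1 CPM in sh-Gpc2 libraries and 5.38, 16.3 and 8.21 CPM in sh-NT libraries, with Sox10 at 0 in sh-Gpc4 library 3 and at no more than 0.07 CPM elsewhere. The 6 erythroid markers, none at 0, summed to 58.0, 113 and 74.2 CPM in sh-Gpc4 libraries, 62.2, 125 and 116 CPM in sh-Gpc2 libraries and 63.7, 54.9 and 120.3 CPM in sh-NT libraries. Both sums were higher in sh-Gpc2 libraries 2 and 4 than in library 1, as Slc7a11 was, but the oligodendrocyte precursor sum was highest in sh-NT library 2 and the erythroid sum was as high in sh-NT library 4, where Slc7a11 was not. The 10 microglial markers, none at 0, summed to 1098 to 1587 CPM in sh-Gpc4, 419 to 1465 CPM in sh-Gpc2 and 799 to 1222 CPM in sh-NT libraries; sh-Gpc2 library 2 had the lowest sum of all and library 4 the highest of its group. GABAergic interneuron markers summed to 4.83 to 6.3 CPM in sh-Gpc4, 7.1 to 10.8 CPM in sh-Gpc2 and 5.15 to 51.6 CPM in sh-NT libraries. Of these, Dlx1 had 16.2 CPM in sh-NT library 1 and at most 2.81 CPM in the others. Mural cell markers summed to 9.43 to 13.9 CPM in sh-Gpc4, 8.34 to 20.4 CPM in sh-Gpc2 and 20.02 to 26.7 CPM in sh-NT libraries. For meningeal fibroblast markers the sums were 2.34 to 13.1, 2.08 to 5.23 and 2.87 to 4.64 CPM in the same order of groups. The part of these cells in the Slc7a11 values was not tested.

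Among the same candidates as for Atf4, the profiles over the 9 libraries most like that of Slc7a11 were those of Igtp, Gbp7, Gbp3, Gbp6 and Egfr. Their root-mean-square differences were 0.61 to 0.72 in centred log2 CPM. They were picked for likeness over these same libraries, so the values they share with Slc7a11 follow from that choice. Igtp, an interferon-inducible GTPase, had 19.3, 20.2 and 24.5 CPM in sh-Gpc4 libraries, 17.9, 85.5 and 57.8 CPM in sh-Gpc2 libraries and 16.4, 48.8 and 32.3 CPM in sh-NT libraries. It shared with Slc7a11 the high values in sh-Gpc2 libraries 2 and 4 and the low value in sh-Gpc2 library 1, but it was also high in sh-NT library 2, where Slc7a11 was not. Gbp7, Gbp3 and Gbp6, which encode guanylate-binding proteins, were likewise highest in sh-Gpc2 library 2 and next in library 4, whereas Slc7a11 was highest in library 4. Among the other 9 members none had its 2 highest values in sh-Gpc2 libraries 2 and 4.

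Slc3a2 (ENSMUSG00000010095, chromosome 19, 8706882 to 8723369, minus strand) encodes CD98 heavy chain, the partner of xCT and of the large neutral amino acid transporters. It had 209, 191 and 210.4 CPM in sh-Gpc4 libraries, 197, 202 and 219 CPM in sh-Gpc2 libraries and 179.8, 193 and 183 CPM in sh-NT libraries. The sh-Gpc2 libraries all lay above the sh-NT libraries and the sh-Gpc4 libraries overlapped them. The log2 fold change against sh-NT was 0.13 (SE 0.08) in sh-Gpc4 and 0.15 (SE 0.08) in sh-Gpc2 libraries, and the highest library was 1.22 times the lowest, the narrowest range of the 10 genes. With the GC trend removed these values were 0.29 and 0.25. The heavy chain thus did not share the wide range of its light chain Slc7a11, of which it had many times the TPM in every group.

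The synthesis enzymes overlapped between all groups. Asns (ENSMUSG00000029752, chromosome 6, 7675169 to 7693254, minus strand), which makes asparagine, had 45.8, 47.1 and 57.5 CPM in sh-Gpc4 libraries, 37.8, 48.3 and 57.4 CPM in sh-Gpc2 libraries and 40.6, 52.9 and 39.4 CPM in sh-NT libraries. Phgdh (ENSMUSG00000053398, chromosome 3, 98313170 to 98339990, minus strand), the first enzyme of serine synthesis, had 169, 121 and 169 CPM in sh-Gpc4 libraries, 164, 211 and 143 CPM in sh-Gpc2 libraries and 175, 206 and 154 CPM in sh-NT libraries. Psat1 (ENSMUSG00000024640, chromosome 19, 15904678 to 15947337, minus strand), the next enzyme, had 172, 173 and 197 CPM in sh-Gpc4 libraries, 164, 225 and 184 CPM in sh-Gpc2 libraries and 178, 194 and 159.8 CPM in sh-NT libraries. Both serine enzymes were highest in sh-Gpc2 library 2, the library with the highest summed level of radial glia markers (3851 CPM, against 2315 to 2929 CPM in the others), and the part of radial glia in those values was not tested. The log2 fold changes against sh-NT were 0.18 (SE 0.18) for Asns, 0.02 (SE 0.13) for Psat1 and -0.22 (SE 0.18) for Phgdh in sh-Gpc4 libraries. In sh-Gpc2 libraries they were 0.11 (SE 0.18), 0.11 (SE 0.13) and -0.05 (SE 0.18). The sign for Phgdh, whose exons are 57.2% G or C, turned with the GC trend removed, to 0.13 in sh-Gpc4 and 0.14 in sh-Gpc2 libraries. The sh-Gpc4 value was 0.07 with a replicate block by library number, in which sh-Gpc4 library 3 has no partner of its number. Without that library it was -0.06.

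**Figure D4:**
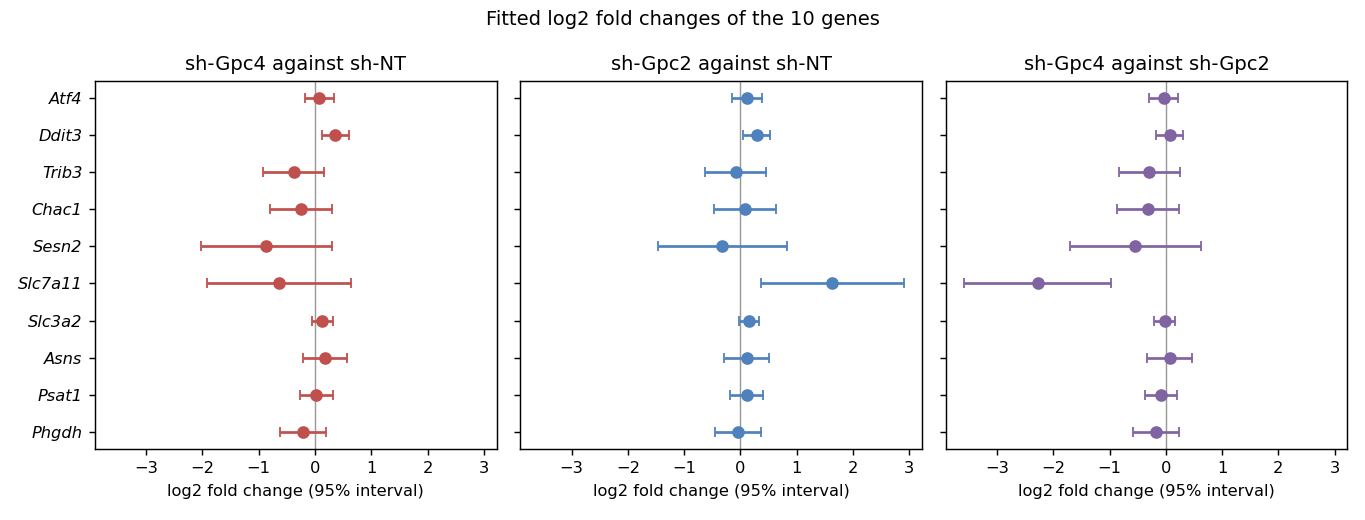
Fitted log2 fold change with its 95% interval (x axis) for each of the 10 genes (rows) in the 3 comparisons. The intervals are narrow around 0 for Atf4, Slc3a2 and Psat1 and wide for Sesn2 and Slc7a11, whose sh-Gpc2 against sh-NT interval runs from 0.36 to 2.90.

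The rest of the pathway was described from lists of genes named for their roles. No gene of these lists passed the adjusted test in any comparison. Genes named here were mostly those with the smallest p in their list, so a lack of overlap follows in part from that choice. Over all tested genes, sh-Gpc4 libraries did not overlap sh-NT for 10.8% (higher) and 13.2% (lower). For sh-Gpc2 against sh-NT the shares were 3.59% and 4.11%, and for sh-Gpc4 against sh-Gpc2 they were 3.5% and 2%. Upstream, 12 genes of the eIF2 alpha kinases and their regulators were tested, and their median log2 fold change was 0.10 in sh-Gpc4 and 0.07 in sh-Gpc2 libraries against sh-NT. Ppp1r15a (GADD34), the stress-induced subunit that dephosphorylates eIF2 alpha, had 158, 127 and 109.7 CPM in sh-Gpc4 libraries, 142, 148 and 149 CPM in sh-Gpc2 libraries and 110.2, 107 and 115 CPM in sh-NT libraries. Its sh-Gpc2 libraries lay above all sh-NT libraries, with a log2 fold change of 0.40 (SE 0.12; edgeR quasi-likelihood, adjusted p = 0.968). Eif2b5, the catalytic subunit of the exchange factor eIF2B, had 21.1, 20.2 and 23.8 CPM in sh-Gpc4 libraries, 32.4, 29.0 and 20.8 CPM in sh-Gpc2 libraries and 27.7, 29.4 and 36.5 CPM in sh-NT libraries. Its sh-Gpc4 libraries lay below all sh-NT libraries (log2 fold change -0.52, SE 0.18; adjusted p = 0.488).

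The 7 tested partners and feedback factors of ATF4 had medians of 0.48 in sh-Gpc4 and 0.33 in sh-Gpc2 libraries against sh-NT. Values went in both directions, and the medians are those of Maf (sh-Gpc4) and Cebpg (sh-Gpc2). Atf3, Cebpa and Maf were lowest in sh-Gpc2 library 2 (17.7, 0.323 and 5.84 CPM), where the microglial sum was lowest. The part of microglia in these values was not tested. Atf5, a related factor, had 16.6, 7.92 and 11.6 CPM in sh-Gpc4 libraries, 21.5, 25.6 and 10.4 CPM in sh-Gpc2 libraries and 23.9, 27.0 and 23.0 CPM in sh-NT libraries. Cebpg, which pairs with ATF4, had 72.4, 166 and 110.0 CPM in sh-Gpc4 libraries, 53.2, 64.3 and 138 CPM in sh-Gpc2 libraries and 70.8, 55.5 and 77.6 CPM in sh-NT libraries. Atf5 was lowest and Cebpg highest in sh-Gpc4 library 3, with sh-Gpc2 library 4 next, at opposite ends of the same split of libraries. The log2 fold changes in sh-Gpc4 against sh-NT were -1.04 (SE 0.33; edgeR adjusted p = 0.488) for Atf5 and 0.77 for Cebpg.

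Of 12 other amino acid transporters, 3 were above 0 in sh-Gpc4 (median -0.20) and 5 in sh-Gpc2 libraries (median -0.03), each against sh-NT. Slc7a3, a cationic amino acid transporter, had 5.63, 5.46 and 5.71 CPM in sh-Gpc4 libraries, 5.63, 4.92 and 6.61 CPM in sh-Gpc2 libraries and 4.23, 4.51 and 3.17 CPM in sh-NT libraries. All sh-Gpc4 and sh-Gpc2 libraries lay above all sh-NT libraries, and the share of genes with this joint pattern was not counted. The log2 fold changes against sh-NT were 0.50 (SE 0.17, edgeR adjusted p = 0.488) in sh-Gpc4 and 0.53 (SE 0.17, edgeR adjusted p = 0.968) in sh-Gpc2 libraries. Slc7a1, another cationic transporter, had a log2 fold change of -0.74 (SE 0.29; adjusted p = 0.488) in sh-Gpc4 libraries, and the groups overlapped. The 13 other amino acid and one-carbon enzymes had medians of -0.11 and 0.05, and the 12 genes of tRNA synthetases and tRNA export had medians of -0.03 and 0.01. In the tRNA list Vars, valyl-tRNA synthetase, had 94.9, 29.1 and 52.5 CPM in sh-Gpc4 libraries, 138, 145 and 33.7 CPM in sh-Gpc2 libraries and 130.3, 166 and 125 CPM in sh-NT libraries, low in the same libraries as Sesn2.

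Of 9 further ATF4-linked stress genes, 5 were above 0 in sh-Gpc4 and 6 in sh-Gpc2 libraries, with medians of 0.04 in each. Gdf15, a secreted stress hormone, had 2.84, 2.58 and 1.97 CPM in sh-Gpc4 libraries, 3.39, 2.32 and 3.72 CPM in sh-Gpc2 libraries and 1.72, 1.60 and 1.98 CPM in sh-NT libraries. Its sh-Gpc2 libraries all lay above sh-NT (log2 fold change 0.83, SE 0.22; edgeR adjusted p = 0.968). In the ATF6 and XBP1 arm of the unfolded protein response 11 of 15 genes were above 0 in sh-Gpc2 libraries against sh-NT (median 0.11) and 10 of 15 in sh-Gpc4 libraries (median 0.03). Hspa5 (BiP), the main chaperone of the endoplasmic reticulum, had 1480.5, 1309 and 1083 CPM in sh-Gpc4 libraries, 1420.0, 1427 and 1551 CPM in sh-Gpc2 libraries and 988, 1036 and 1238 CPM in sh-NT libraries. Its sh-Gpc2 libraries did not overlap sh-NT (log2 fold change 0.43, SE 0.13; adjusted p = 0.968).

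Slc7a11 is also a target of NRF2, the factor that switches on antioxidant genes, so 12 other NRF2 targets were read beside it. The antioxidant response element that NRF2 binds, searched as TGACNNNGC on both strands of the same 250 bases, was not found before Slc7a11; it was found before Asns, Phgdh and Sesn2, and 10.2% of promoters held it. Of the 12 NRF2 targets, 7 were above 0 in sh-Gpc2 (median 0.07) and 5 in sh-Gpc4 libraries (median -0.05), each against sh-NT. Hmox1, haem oxygenase 1, had 51.7, 112 and 85.4 CPM in sh-Gpc4 libraries, 96.7, 120.3 and 141 CPM in sh-Gpc2 libraries and 66.5, 74.9 and 74.5 CPM in sh-NT libraries. Within the sh-Gpc2 group Hmox1 had the same order of libraries as Slc7a11, with library 4 highest and library 1 lowest, and all 3 lay above sh-NT (log2 fold change 0.73, SE 0.24; edgeR adjusted p = 0.968). Unlike Slc7a11, Hmox1 was also high in sh-Gpc4 library 3. Gsr, glutathione reductase, had 17.3, 16.6 and 23.4 CPM in sh-Gpc4 libraries, 26.3, 30.3 and 23.6 CPM in sh-Gpc2 libraries and 24.5, 29.7 and 28.3 CPM in sh-NT libraries. Its sh-Gpc4 libraries lay below both other groups (log2 fold change -0.53, SE 0.16, against sh-NT, and -0.48, SE 0.16, against sh-Gpc2; edgeR adjusted p = 0.488 and 0.966). Within the sh-Gpc2 group Gsr had library 4 lowest, unlike Slc7a11 and Hmox1. The order of libraries in the other targets was not compared.

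**Figure D5:**
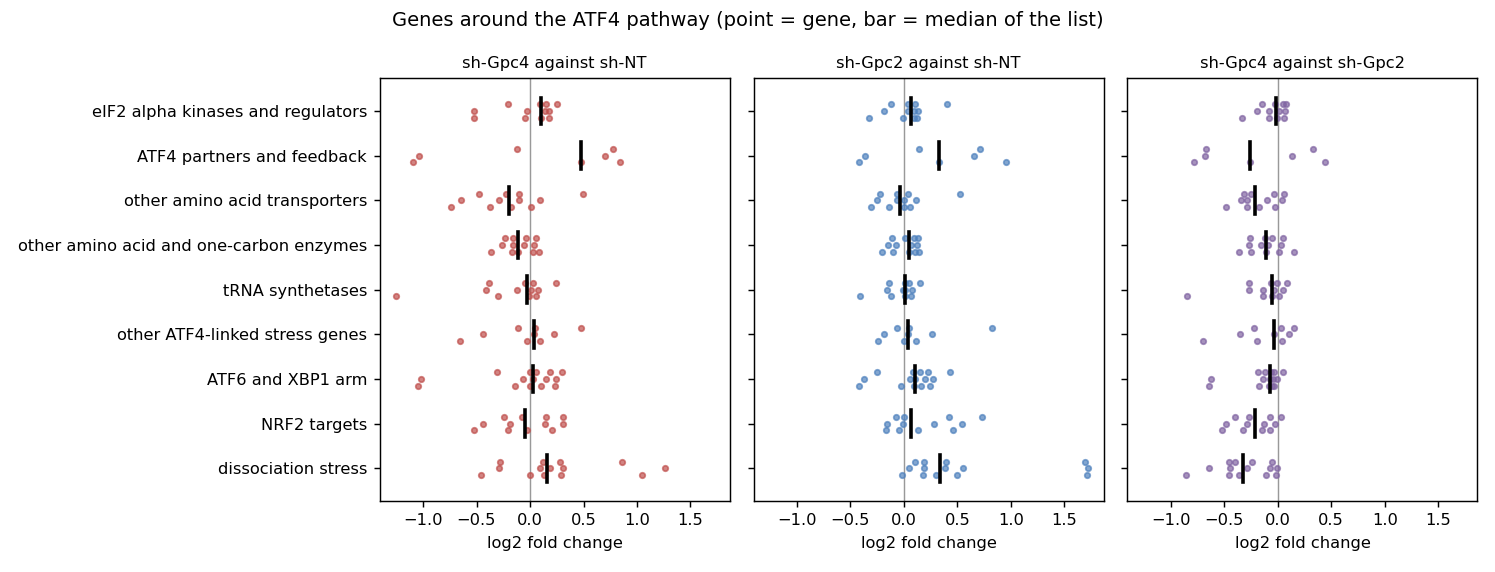
Fitted log2 fold change (x axis) of every tested gene of 9 lists around the ATF4 pathway (rows) in the 3 comparisons; each point is a gene and each black bar the median of its list; most medians lie between -0.2 and 0.2; those of the dissociation list in sh-Gpc2 (0.34) and of the ATF4 partners (0.48 in sh-Gpc4 and 0.33 in sh-Gpc2), each against sh-NT, lie above that band. In sh-Gpc4 against sh-Gpc2 the medians of the dissociation list (-0.33), the ATF4 partners (-0.25), the other transporters (-0.21) and the NRF2 targets (-0.21) lie below it.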

How the data were processed

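Messenger RNA of sorted cells was measured in 9 libraries, 3 per group. The deposited table gives raw read counts per gene; per the submitters' processing notes, the authors used featureCounts (Subread) and the mouse build GRCm38 (mm10). Aligner, annotation release, tool versions and strand setting: not given in the sources used here. The annotation of GENCODE M21 (GRCm38) matched 51486 of 78275 gene IDs (65.8%), which held at least 96.8% of the reads of each library, and gave symbols, positions, GC content and the exon lengths used for TPM. Promoters are from RefSeq (GRCm38.p6) and matched all 10 genes.

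Columns were assigned to groups by name. Their numbers differ from those in the sample titles, so libraries carry the column number here. Libraries of 1 group differed beyond sampling noise, with a chi-square of 8.56 to 93.4 per degree of freedom, and none was counted as a duplicate.

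Counts were tested in R 4.3.3 with the edgeR 4.0.16 quasi-likelihood test on all 9 libraries, with TMM scaling and edgeR's default filter for low counts. Adjustment was by Benjamini-Hochberg across the 27773 genes (threshold 0.05). The SE of a log2 fold change is its size over the square root of F. CPM values are TMM-scaled. Profiles were compared as log2 CPM (prior count 2). DESeq2 1.42.0, limma 3.58.1 (voom with sample weights), other size factors, filters, fits of 2 groups, a replicate block and leaving out each library were alternatives; leaving out both libraries that stood apart and removing the GC trend (a spline with 6 degrees of freedom) were chosen after seeing the data. The edgeR step was tested on simulated data.

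The members and gene lists were chosen with earlier results of these data known. Named genes are the 10 members, Gpc4 and Gpc2, and up to 3 genes per list and comparison by smallest p. The 5 genes nearest in profile to Slc7a11 and to Atf4 are also named. Hspa1a, Gm4189, the second Ddit3 ID, Mars, Maf, Cebpa and the cell markers named singly were added for what they show beside a result. Counts give no molecular identifiers, so PCR duplicates cannot be recognised.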

Additional observations from a re-analysis of the deposited data

How the results depend on the processing

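No gene was called in any comparison by edgeR under any alternative, or by limma voom; the DESeq2 Wald test called 46 genes, 13 higher and 33 lower, in sh-Gpc4 libraries against sh-NT libraries, and the cause was not tested. None of the 10 genes passed an adjusted p of 0.05 under any alternative; the smallest was 0.0786, for Ddit3 in sh-Gpc4 against sh-NT by limma voom. With each library left out in turn the log2 fold change of Slc7a11 ran from 0.80 to 2.10 for sh-Gpc2 against sh-NT, from -0.76 to -0.54 for sh-Gpc4 against sh-NT and from -2.75 to -1.44 for sh-Gpc4 against sh-Gpc2. For the other 9 members 480 values were computed under alternatives: 469 moved by less than the SD between replicates and 11 by more, and 17 of 27 fold changes, most near 0, changed sign under at least 1 alternative. The filter of more than 5 CPM in 3 libraries removed Slc7a11, Trib3 and Chac1 and gave no value for them. With a replicate block by library number Slc7a11 was at 1.34 for sh-Gpc2 against sh-NT, -0.72 for sh-Gpc4 against sh-NT and -2.07 for sh-Gpc4 against sh-Gpc2, with 0 genes called. In that block sh-Gpc4 library 3 has no partner of its number. Same-numbered libraries did not deviate together throughout (correlations from -0.10 to 0.68), so the numbers were not taken as pairs. Genes near 2 CPM rest on about 100 reads a library, and 3 libraries per group limit every interval.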
